A study of Mus musculus with 12 samples.

Results

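The 45 genes described here encode ribosome biogenesis factors, the nucleolar proteins that process and modify ribosomal RNA and assemble it with ribosomal proteins. They were chosen by name as nucleolar assembly and small nucleolar ribonucleoprotein (snoRNP) proteins, and all 45 were found among the 55536 gene IDs counted in each library. The cells were embryonic fibroblasts of the mouse (MEF), which are cultured connective tissue cells, and no genotype or strain is given for them. Halofuginone (HF) is a compound known to inhibit the prolyl-tRNA synthetase activity of EPRS. One condition was 100 nM HF for 6 h, and the other was the same 6 h without HF. Both were kept in high-glucose DMEM with dialyzed serum. Total RNA and ribosome footprints (RPF, the mRNA fragments that ribosomes protect from RNase) were read in 3 HF and 3 control libraries each, 12 libraries in 4 groups. Separate cultures for the libraries of a group are not stated in the labels, so the spread behind the p-values may be technical.

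In RNA, libraries held 1017651 to 1697554 counts in HF cells and 718096 to 1295434 in control cells. In footprints they held 562794 to 1958356 counts in HF cells and 724609 to 2527791 in control cells. Each library is named below by assay, group and number, as RNA HF 1. The summed level of 11 fibroblast markers in RNA was 9830 to 10100 counts scaled to a common library total (CPM) in HF libraries and 8540 to 9000 CPM in control libraries. Most of these markers were lower in RNA all the same. Of 9 tested, 6 were lower in HF cells (Col1a1, Col1a2, Col6a1, Pdgfrb, Sparc and S100a4) and 1 was higher, with a median log2 fold change of −0.88. The higher one was Fn1 (fibronectin), at 4979 ± 137 CPM in HF and 1540 ± 14.5 CPM in control RNA (SD, n = 3 each). In footprints the marker sum was 13100 to 13400 CPM in HF libraries and 17500 to 18600 CPM in control libraries, with 7 of 10 lower and 2 higher. The 6 epithelial markers summed to 193 to 201 CPM in HF and 71.9 to 86.1 CPM in control RNA. That sum was Krt19, a keratin (log2 fold change 1.28 ± 0.158 SE, adjusted p = 3.53e-10), and the other 5, Epcam and Cdh1 among them, were at 0 in RNA. The 6 endothelial markers summed to 6.16 to 15.7 CPM in HF and 0 to 1.61 CPM in control RNA, and the 6 macrophage markers to 4.71 to 7.04 CPM in HF and 1.61 to 4.20 CPM in control RNA. Neural markers, also 6, summed to 13.8 to 38.7 CPM in HF and 27.3 to 42.7 CPM in control RNA, and the 5 muscle markers were at 0 in all 6 RNA libraries. The part of these marker changes in the results on the members was not tested. In bulk samples, fewer cells of a type and less RNA per cell cannot be told apart.

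Ribosomes are built in the nucleolus, where RNA polymerase I transcribes a long precursor of the ribosomal RNAs. Box C/D and box H/ACA snoRNPs guide methylation and pseudouridylation of that precursor, the small-subunit (SSU) processome folds and cuts the part that becomes the 40S subunit, and a separate set of factors matures the 60S subunit. Transcription of these genes is known to be driven by the factor Myc, and ribosome production is a main target of nutrient signalling.

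The 45 members did not move as a block. All 45 passed the filter on low counts in RNA, in footprints and in the test of translational efficiency (TE, footprints relative to RNA). Protein output and the speed of ribosomes along an mRNA were not measured. Higher footprints or TE in HF cells thus need not mean that more protein was made. In RNA, 14 members were higher and 11 lower in HF cells, and 20 did not pass (edgeR quasi-likelihood test, adjusted p under 0.05). Over all 9145 genes tested, 22.2% were called higher and 21.4% lower. The median log2 fold change of the members was 0.03, beside −0.02 for all genes. In footprints 12 members were higher, 10 lower and 23 not called. The background over 8373 protein-coding genes was 22.4% higher and 20.9% lower. TE passed the test for 6 members, 2 higher and 4 lower, against a background of 6.14% higher and 8.23% lower among 7921 genes. The calls thus went both ways over the whole list, as they did over all genes. Counts by role are given next and in the plot of all members by role. Some role groups had calls in 1 direction and others, such as the SSU processome and the nucleolar organisers, in both.

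**Figure D1:**
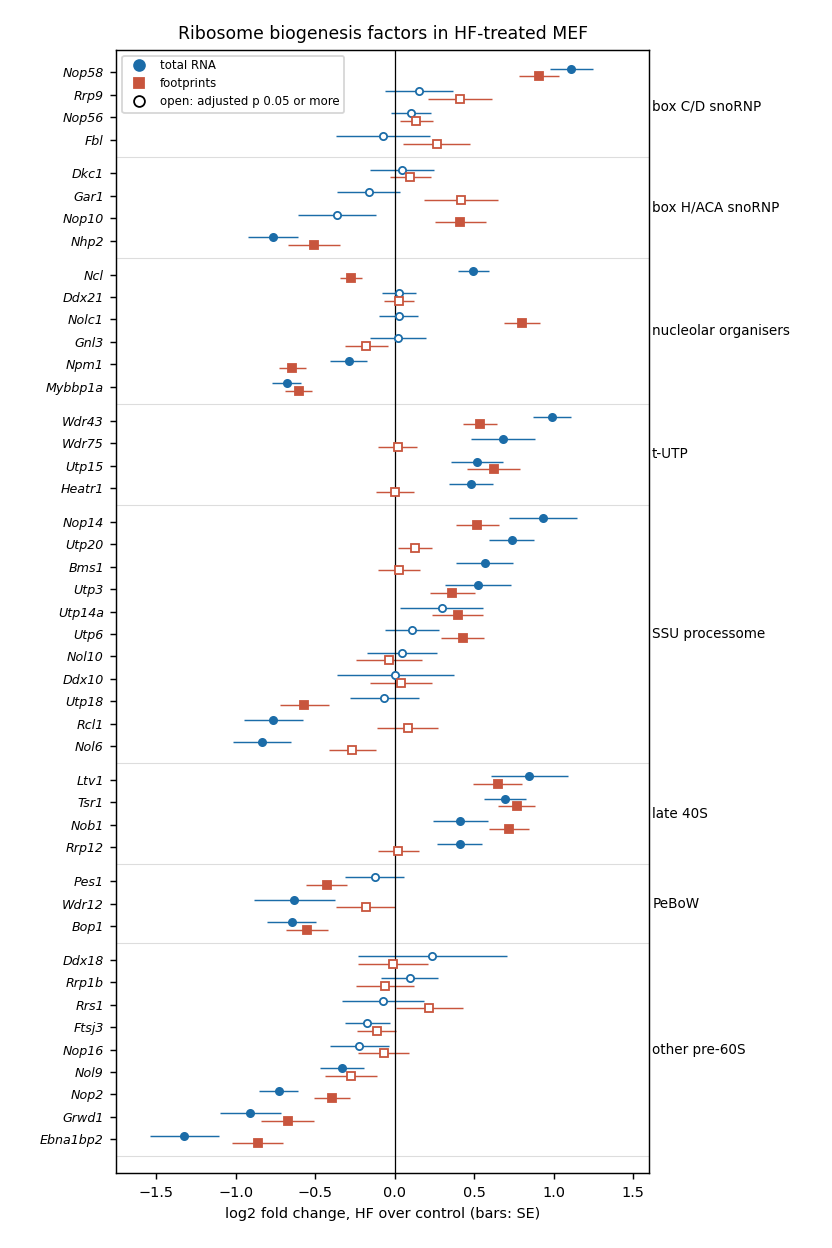
The log2 fold change (HF over control) of all 45 members is plotted on the horizontal axis with its standard error, by role group, for total RNA (circles) and footprints (squares), with filled symbols for an adjusted p under 0.05. All 4 t-UTP and all 4 late 40S members have filled RNA symbols right of 0, while in the PeBoW and pre-60S groups every filled symbol lies left of 0.

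Members that act on the small subunit (t-UTP, SSU processome and late 40S groups, 19 genes) were called higher in RNA in 12 cases and lower in 2, with a median log2 fold change of 0.48. Members that act on the large subunit (PeBoW and other pre-60S factors, 12 genes) were called higher in 0 cases and lower in 6, with a median of −0.28. Footprints had the same pattern of counts, 9 higher and 1 lower of the 19 small-subunit members against 0 higher and 5 lower of the 12 large-subunit members. The medians in footprints were 0.12 and −0.23. Over all genes tested, 22.2% were called higher and 21.4% lower in RNA, and 22.4% and 20.9% in footprints. Whether the subunit groups differ was not tested, since the members were chosen with results known. Genes outside the list were counted in the same way. Of 37 other small-subunit genes 11 were higher and 7 lower in RNA, with a median of 0.00. Of 45 other large-subunit genes tested, 12 were higher and 9 lower, with a median of 0.19. In footprints the other small-subunit genes had 12 higher and 8 lower of 37, and the other large-subunit genes 15 higher and 8 lower of 46. Outside the list, genes of both subunits were thus called in both directions, so the counts by subunit describe the genes listed and not small- and large-subunit factors at large.

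**Figure D2:**
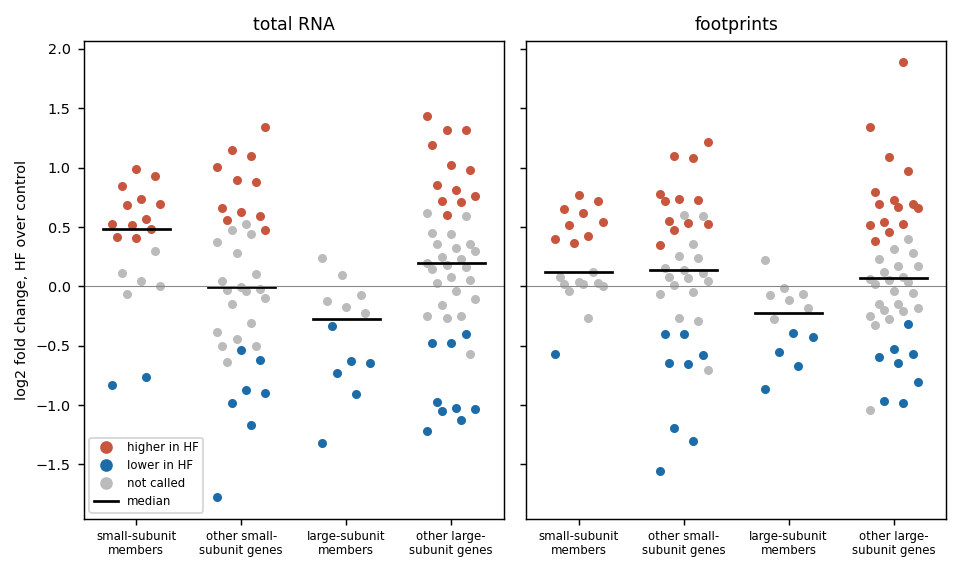
Each point is the log2 fold change (HF over control, vertical axis) of a gene in total RNA (left) or footprints (right), coloured by its call, with the group median as a black line. Small-subunit members have a median of 0.48 in RNA and large-subunit members −0.28, while the other genes of both subunits spread to both sides of 0.

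Myc, the transcription factor known to drive many of these genes, had 667, 610.1 and 600.5 CPM in RNA of HF cells, against 161, 137 and 144 CPM in control cells. The groups do not overlap, and the log2 fold change was 2.08 ± 0.115 (SE; adjusted p = 7.76e-25). Its footprints changed alike, by 2.16 ± 0.112 on the log2 scale (SE; adjusted p = 8.21e-17). Myc binds the E-box CACGTG, a palindrome that reads the same on both strands. This motif was searched in the RefSeq promoter windows of the GRCm38.p6 assembly, 250 bases before to 50 after the start site that the promoter table gives for a gene. A window was found for 38 members. It held the E-box in 9 of them, 23.7%, against 9.01% of the 17148 protein-coding genes with a window, expressed in these cells or not. The share was 17.6% of 102 other biogenesis genes with a window and 9.23% of 65 ribosomal protein genes. By role it was found for 5 of 16 small-subunit and 3 of 10 large-subunit members. Of snoRNP members with a window it was found for 0 of 7, Nop58 among them, and of nucleolar organisers for 1 of 5. The E-boxes of the 9 members are shown with up to 12 bases on each side, because they allow the motif to be set beside each gene's change. They are read 5′ to 3′ on the gene's strand, with the E-box in capitals.
Wdr43 (chr17:71616220-71616249, + strand): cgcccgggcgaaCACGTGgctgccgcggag
Utp20 (chr10:88826765-88826789, − strand): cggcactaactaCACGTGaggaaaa
Tsr1 (chr11:74898092-74898121, + strand): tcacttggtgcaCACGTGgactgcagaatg
Ltv1 (chr10:13193092-13193121, − strand): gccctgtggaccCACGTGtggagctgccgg
Utp18 (chr11:93885769-93885798, − strand): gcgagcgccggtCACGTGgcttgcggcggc
Pes1 (chr11:3963965-3963994, + strand): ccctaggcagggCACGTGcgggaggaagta
Nop2 (chr6:125131811-125131840, + strand): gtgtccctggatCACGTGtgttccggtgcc
Grwd1 (chr7:45830740-45830767, − strand): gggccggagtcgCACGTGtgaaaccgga
Mybbp1a (chr11:72441355-72441376, + strand): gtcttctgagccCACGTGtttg
Of these 9 genes, the RNA of 4 was higher in HF cells (Wdr43, Utp20, Tsr1 and Ltv1), that of 3 was lower (Mybbp1a, Nop2 and Grwd1), and Utp18 and Pes1 were not called. The motif was thus present in members that changed in either direction. Among members with a window, it was found for 4 of 13 called higher, 3 of 8 called lower and 2 of 17 not called. The first base of the motif lay between position −60 (Nop2) and position 41 (Mybbp1a), with the start site of the promoter table as position 1. For some genes, Wdr43 and Grwd1 among them, that site lies inside the outer bounds of the gene. A match of letters is a description, and binding was not measured.

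The box C/D snoRNP is the enzyme that methylates ribosomal RNA. Among its proteins Nop58 (chromosome 1 from 59684961 to 59711510), a core subunit, had the highest fold change of all members. Its RNA stood at 265, 326 and 332 CPM in HF cells, against 117, 161 and 155 CPM in control cells. Every HF library lay above every control library, a 2.16-fold difference (log2 fold change 1.11 ± 0.135 SE, adjusted p = 1.97e-10). Its footprints were 1090, 818 and 675 CPM in HF cells and 528, 452 and 400.5 CPM in control cells. They too did not overlap, with a log2 fold change of 0.91 ± 0.125 (SE; adjusted p = 4.51e-07), and the highest of the 3 HF values was in the deepest HF library. Nop56, the partner of Nop58 in the same particle, had 248, 254 and 209.6 CPM of RNA in HF cells, against 217, 221 and 223 CPM in control cells. Its log2 fold change of 0.10 ± 0.125 (SE) did not pass (adjusted p = 0.536). Fbl, the methyltransferase itself, was at −0.07 ± 0.296 and Rrp9, which binds the U3 snoRNA, at 0.15 ± 0.215 (log2 fold change in RNA, SE), and neither passed. Among these 4 members, only Nop58 was called in RNA and in footprints. Snu13, a further protein of this particle outside the list, was lower in footprints (log2 fold change −1.195 ± 0.173 SE, adjusted p = 1.1e-06). Its RNA was at −0.50 ± 0.287 (log2 fold change, SE) and did not pass.

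Box H/ACA snoRNPs convert uridines of ribosomal RNA to pseudouridine. Nhp2, an RNA-binding subunit, was the leading member by level, with RNA at 111, 81.5 and 111 CPM in HF cells, against 169, 169 and 183 CPM in control cells. All HF values were lower, by 0.77 ± 0.157 on the log2 scale (SE; adjusted p = 4.57e-05). In footprints Nhp2 had 155, 119 and 144 CPM in HF cells, against 164, 205 and 246 CPM in control cells. It was called lower there (log2 fold change −0.51 ± 0.163 SE, adjusted p = 0.0123), but the adjusted p was 0.0684 without RPF control 3 and 0.060 without RPF HF 2. Nop10, a small structural subunit, had a footprint log2 fold change of 0.41 ± 0.160 (SE; adjusted p = 0.0361). That call was lost without RPF control 1, RPF control 3 or RPF HF 1, where the adjusted p was 0.0660, 0.256 and 0.387. The RNA of Nop10 was at −0.36 ± 0.248 (log2 fold change, SE) and did not pass. Dkc1, the pseudouridine synthase, and Gar1 were called in neither assay, with RNA log2 fold changes of 0.05 ± 0.199 and −0.16 ± 0.200 (SE).

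The abundant nucleolar proteins moved in different ways. Mybbp1a, a Myb-binding protein that associates with the RNA polymerase I machinery, had the highest mean RNA level of all members. It stood at 504, 534 and 541 CPM in HF cells, against 859, 875 and 797 CPM in control cells. The groups were far apart, with a log2 fold change of −0.68 ± 0.0931 (SE; adjusted p = 7.81e-09). Footprints of Mybbp1a were 987, 1146 and 1071 CPM in HF cells and 1686, 1650 and 1515 CPM in control cells, which gave −0.60 ± 0.0837 (log2 fold change, SE; adjusted p = 5.12e-07). Thus RNA and footprints of Mybbp1a fell by similar amounts, and TE was at 0.08 ± 0.115 (log2, SE).

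Ncl (nucleolin; chromosome 1 from 86344719 to 86359455), an RNA-binding protein of the dense fibrillar part of the nucleolus, was the only member called in opposite directions by the assays. Its RNA was 602, 631 and 609 CPM in HF cells and 486, 407 and 407 CPM in control cells. All 3 HF libraries were above the control libraries (log2 fold change 0.50 ± 0.0995 SE, adjusted p = 3.19e-05). Its footprints were 3573, 3200 and 3035 CPM in HF cells, against 4158, 3769 and 3971 CPM in control cells. Here every HF library was below the control libraries (log2 fold change −0.28 ± 0.0686 SE, adjusted p = 0.00142). The TE of Ncl fell by 0.76 ± 0.105 on the log2 scale (SE; adjusted p = 3.98e-07). Opposite calls with higher RNA and lower footprints were found for 78 of the 1894 genes called higher in RNA and tested in both assays, 4.12%.

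Nolc1, a chaperone of snoRNPs in the nucleolus and Cajal bodies, differed in the other direction. Its RNA was 236, 254 and 230.2 CPM in HF cells, against 253, 241 and 211 CPM in control cells, with overlapping groups and a log2 fold change of 0.02 ± 0.123 (SE; adjusted p = 0.890). Footprints of Nolc1 were 479, 530.3 and 502 CPM in HF cells and 269, 303 and 295 CPM in control cells. The footprint groups were well separated (log2 fold change 0.80 ± 0.112 SE, adjusted p = 6.1e-07). TE rose by 0.78 ± 0.164 on the log2 scale (SE; adjusted p = 0.000491), the smallest adjusted p among members with a higher TE.

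Npm1 (nucleophosmin), a scaffold of the outer nucleolus, had footprints of 1375, 1413 and 1122 CPM in HF cells and 2051, 1929 and 2149 CPM in control cells. The groups did not overlap, and the log2 fold change was −0.64 ± 0.0843 (SE; adjusted p = 1.94e-07). In RNA it had 230.4, 306 and 257 CPM in HF cells, against 324, 296 and 344 CPM in control cells. These groups overlapped. The call (log2 fold change −0.29 ± 0.118 SE, adjusted p = 0.0397) was lost without any of 4 libraries, with an adjusted p of 0.0922 without RNA control 1, 0.146 without RNA control 3, 0.321 without RNA HF 1 and 0.169 without RNA HF 3. Npm1 has processed pseudogenes of near-identical sequence, so its counts are uncertain. Gnl3 (nucleostemin) and Ddx21, a nucleolar RNA helicase, were called in neither assay, with RNA log2 fold changes of 0.02 ± 0.176 and 0.03 ± 0.107 (SE).

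**Figure D3:**
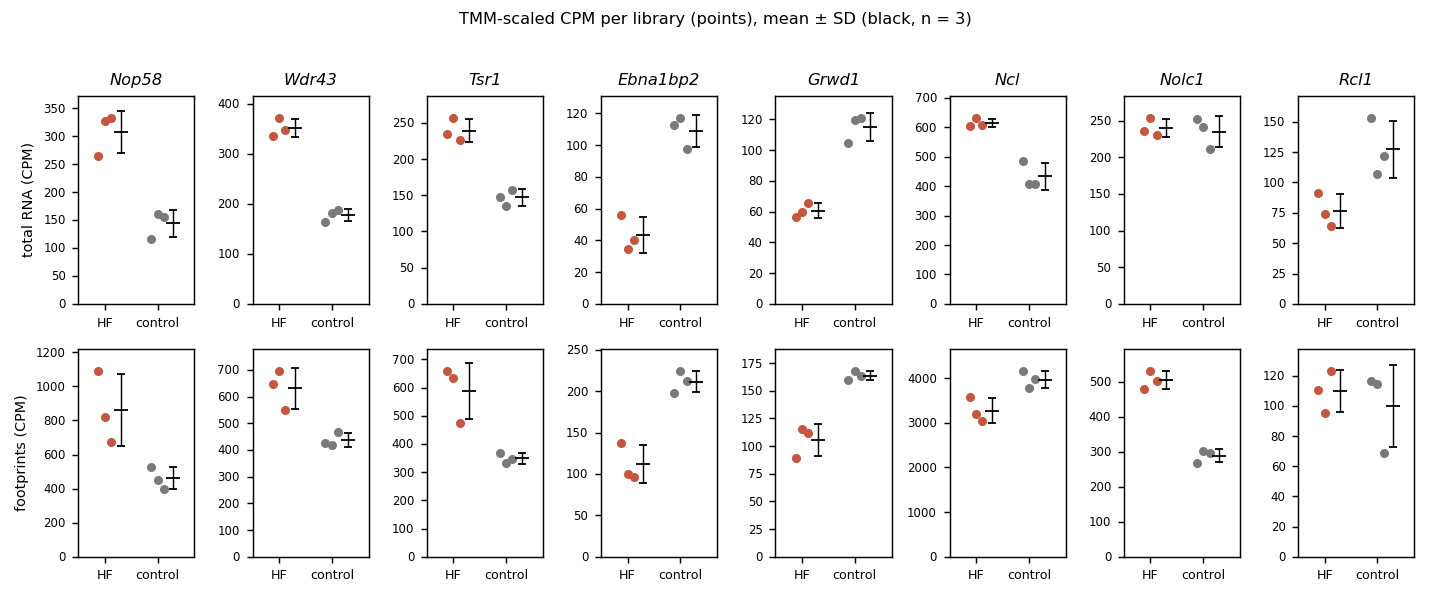
TMM-scaled CPM per library (points; HF left, control right) with the mean and SD over 3 libraries (black) for 8 members, in total RNA (upper row) and footprints (lower row), on separate linear axes from 0. Ncl lies higher in HF in RNA and lower in HF in footprints, Nolc1 separates in footprints alone, and Nop58, Wdr43 and Tsr1 are higher in HF in both rows.

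The t-UTP proteins join the precursor first and are known to be needed for its transcription by RNA polymerase I. All 4 members of this group were higher in RNA of HF cells, as were 22.2% of all genes tested. Of t-UTP proteins outside the list, Nol11 was higher in RNA alone and Utp4 was called in neither assay. Wdr43, the most abundant of the 4 members, had 335, 371 and 347 CPM in HF cells, against 163, 182 and 187 CPM in control cells. The groups did not overlap (log2 fold change 0.99 ± 0.121 SE, adjusted p = 2.83e-10). Footprints of Wdr43 were 648, 696 and 548 CPM in HF cells and 424, 418 and 468 CPM in control cells. They were higher by less than the RNA, with a log2 fold change of 0.54 ± 0.107 (SE; adjusted p = 0.000121).

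Wdr75, another WD-repeat subunit, had RNA of 100.3, 133 and 97.1 CPM in HF cells, against 53.1, 77.5 and 76.7 CPM in control cells. The groups were apart, with a log2 fold change of 0.68 ± 0.199 (SE; adjusted p = 0.00368), and the call was lost without RNA control 1 (adjusted p = 0.0663). Its footprints were 282, 308 and 301 CPM in HF cells and 319.9, 258 and 296 CPM in control cells, which overlap (log2 fold change 0.02 ± 0.124 SE). Heatr1, a large repeat protein, was at 0.48 ± 0.139 in RNA (adjusted p = 0.00334) and at 0.00 ± 0.12 in footprints (log2 fold change, SE). Utp15 was called higher in both, at 0.52 ± 0.165 in RNA (adjusted p = 0.00800) and 0.62 ± 0.169 in footprints (adjusted p = 0.00335; log2 fold change, SE). The RNA call of Utp15 was lost without RNA control 2 (0.32, adjusted p = 0.115) and without RNA HF 2 (0.46, adjusted p = 0.0504), and its footprint call without RPF HF 1 (0.35, adjusted p = 0.128). TE was called lower for Wdr43 and Wdr75 and was not called for Heatr1 (−0.47 ± 0.183) and Utp15 (0.11 ± 0.255; log2, SE).

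The SSU processome members, 11 genes, had 4 higher and 2 lower in RNA, and 4 higher and 1 lower in footprints. The shares over all genes were 22.2% higher and 21.4% lower in RNA, and 22.4% and 20.9% in footprints. Nop14, an assembly factor of the processome, had RNA of 102, 108 and 96.5 CPM in HF cells, against 58.0, 32.4 and 66.2 CPM in control cells. The HF libraries were all above (log2 fold change 0.93 ± 0.214 SE, adjusted p = 0.000251). In footprints it was higher by 0.52 ± 0.136 on the log2 scale (SE; adjusted p = 0.00235). Utp20, a very large scaffold protein, had 270.0, 292 and 218 CPM of RNA in HF cells, against 134, 129.7 and 201 CPM in control cells. The groups were apart with a narrow gap (log2 fold change 0.74 ± 0.142 SE, adjusted p = 1.59e-05). Its footprints were 453, 475 and 447 CPM in HF cells and 433, 433 and 389 CPM in control cells, a log2 fold change of 0.12 ± 0.107 (SE) that did not pass, although the groups did not overlap. Bms1, a GTPase, was higher in RNA (0.57 ± 0.180, adjusted p = 0.00793) and not called in footprints (0.03 ± 0.132; log2 fold change, SE).

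Utp3, the homolog of yeast Sas10, was called higher in RNA (0.52 ± 0.208, adjusted p = 0.0348) and in footprints (0.36 ± 0.14, adjusted p = 0.0356; log2 fold change, SE), but neither call was stable. In RNA its adjusted p was 0.0734 without RNA control 1, 0.0925 without RNA control 2, 0.0656 without RNA HF 1 and 0.0677 without RNA HF 3. In footprints it was 0.0577 to 0.160 without RPF control 1, RPF control 2, RPF control 3, RPF HF 2 or RPF HF 3. Utp6 and Utp14a were called higher in footprints alone, at 0.43 ± 0.134 (adjusted p = 0.0100) and 0.40 ± 0.159 (adjusted p = 0.0425; log2 fold change, SE). The call of Utp6 was lost when RPF control 1 (adjusted p = 0.0680) or RPF control 2 (0.119) was left out. That of Utp14a was lost without RPF HF 1 (0.25, adjusted p = 0.291), RPF control 1, RPF control 2 or RPF control 3 (adjusted p = 0.190, 0.121 and 0.0779).

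Other members of the same complex were called lower in RNA or in footprints. Nol6, the homolog of yeast Utp22, had RNA of 80.9, 62.9 and 77.7 CPM in HF cells, against 153, 100.1 and 139 CPM in control cells. All HF libraries were lower (log2 fold change −0.83 ± 0.183 SE, adjusted p = 0.000132), while footprints, at −0.27 ± 0.149 (log2 fold change, SE), did not pass. Rcl1 resembles RNA cyclases, and in yeast it binds the GTPase Bms1 and takes part in cutting the precursor. Its RNA was 91.5, 73.7 and 64.2 CPM in HF cells and 153, 107 and 122 CPM in control cells, without overlap (log2 fold change −0.76 ± 0.184 SE, adjusted p = 0.000472). Its footprints were 110.3, 95.3 and 123 CPM in HF cells, against 116, 115 and 68.9 CPM in control cells, and these overlapped (log2 fold change 0.08 ± 0.191 SE). Utp18, a WD-repeat protein, was lower in footprints, with 133, 169 and 119 CPM in HF cells and 202, 195 and 229 CPM in control cells. The footprint groups did not overlap (log2 fold change −0.57 ± 0.154 SE, adjusted p = 0.00330), while its RNA did (74.8, 62.9 and 89.5 CPM in HF cells, against 51.5, 80.3 and 111 CPM in control cells). Nol10 and Ddx10 were called in neither assay.

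The late 40S factors act on the particle as it leaves the nucleolus and reaches the cytoplasm. All 4 members of this group were higher in RNA and 3 of them in footprints. Among all genes tested, 22.2% were higher in RNA and 22.4% in footprints. Late 40S factors outside the list went both ways. Bysl was lower in both assays and Pno1 in footprints alone, while Riok1, Riok2 and Riok3 were higher in both assays. Tsr1, which resembles GTPases and holds the immature 40S subunit back from translation, had RNA of 235, 256 and 227 CPM in HF cells, against 148, 135 and 158 CPM in control cells. Footprints of Tsr1 were 659, 634 and 476 CPM in HF cells and 368, 331 and 347 CPM in control cells. Neither assay had overlapping groups, and the log2 fold changes were alike, 0.69 ± 0.134 in RNA (adjusted p = 1.76e-05) and 0.77 ± 0.116 in footprints (SE; adjusted p = 2.36e-06).

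Ltv1, an adaptor of 40S maturation, had 71.2, 93.3 and 57.7 CPM of RNA in HF cells, against 45.9, 39.5 and 35.7 CPM in control cells (log2 fold change 0.85 ± 0.244 SE, adjusted p = 0.00332). Its footprints were 191, 204 and 169 CPM in HF cells and 116, 113 and 136 CPM in control cells (log2 fold change 0.65 ± 0.155 SE, adjusted p = 0.000986). The groups were separate in both assays. Nob1, the endonuclease that makes the final cut of the small ribosomal RNA, had footprints of 334, 335 and 322 CPM in HF cells, against 201, 206 and 192 CPM in control cells. This was a log2 fold change of 0.72 ± 0.124 (SE; adjusted p = 1.66e-05) with little spread within groups. In RNA Nob1 had 143, 140.5 and 111 CPM in HF cells and 88.6, 123 and 87.2 CPM in control cells, which overlap. Its RNA call (log2 fold change 0.41 ± 0.174 SE, adjusted p = 0.0469) was lost without RNA control 1 (adjusted p = 0.197), RNA control 3 (0.168), RNA HF 1 (0.126) or RNA HF 2 (0.128). Rrp12, an export factor, was higher in RNA alone (0.41 ± 0.144, adjusted p = 0.0169; footprints 0.02 ± 0.129; log2 fold change, SE), and its call was lost without RNA control 2 (adjusted p = 0.0598).

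The PeBoW complex of Pes1, Bop1 and Wdr12 is needed to process the precursor of the large-subunit RNAs. Bop1, its member with the highest RNA level, had 107, 119.9 and 121 CPM in HF cells, against 216, 145 and 178 CPM in control cells. All HF libraries were lower (log2 fold change −0.65 ± 0.153 SE, adjusted p = 0.000376). Footprints of Bop1 were 189.6, 196 and 243 CPM in HF cells and 292, 297 and 320.4 CPM in control cells, again without overlap (log2 fold change −0.55 ± 0.132 SE, adjusted p = 0.00108). Pes1 was lower in footprints (−0.43 ± 0.127, adjusted p = 0.00679) and not called in RNA (−0.13 ± 0.183; log2 fold change, SE). Wdr12 was called lower in RNA (−0.63 ± 0.254, adjusted p = 0.0378) and not in footprints (−0.18 ± 0.187; log2 fold change, SE). The RNA call of Wdr12 was lost without RNA control 1 (−0.39, adjusted p = 0.318), RNA control 2 (adjusted p = 0.0804), RNA HF 1 (0.0946) or RNA HF 3 (0.219). All 3 subunits thus had negative log2 fold changes in both assays, with 4 of the 6 values past the test. Among all genes tested, 21.4% were called lower in RNA and 20.9% in footprints.

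The other pre-60S factors, 9 genes, had 4 lower and 0 higher in RNA, and 3 lower and 0 higher in footprints. The shares called lower over all genes were 21.4% and 20.9%. Ebna1bp2 (chromosome 4 from 118620799 to 118627776), the homolog of yeast Ebp2, had the lowest fold change of all members in both assays. Its RNA was 56.3, 34.4 and 40.03 CPM in HF cells and 113, 117 and 97.7 CPM in control cells. HF libraries were 2.50-fold lower (log2 fold change −1.32 ± 0.215 SE, adjusted p = 5.78e-07). In footprints Ebna1bp2 had 138, 100.4 and 96.7 CPM in HF cells, against 198, 224 and 212 CPM in control cells, without overlap (log2 fold change −0.86 ± 0.160 SE, adjusted p = 4.87e-05).

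Grwd1, the homolog of the yeast chaperone of ribosomal protein L3, had RNA of 56.3, 59.9 and 65.9 CPM in HF cells, against 105, 119.8 and 121 CPM in control cells (log2 fold change −0.91 ± 0.193 SE, adjusted p = 8.18e-05). Footprints of Grwd1 were 88.9, 115 and 112 CPM in HF cells and 160.2, 168 and 163 CPM in control cells (log2 fold change −0.67 ± 0.166 SE, adjusted p = 0.00131). Neither assay had overlapping groups. Nop2, a methyltransferase of the large ribosomal RNA, had RNA of 183, 164 and 191 CPM in HF cells, against 298, 286 and 311 CPM in control cells, again apart (log2 fold change −0.73 ± 0.123 SE, adjusted p = 1.25e-06). Its footprints were also lower (−0.39 ± 0.115 SE, log2 fold change; adjusted p = 0.00601). Nol9, a kinase that acts on RNA ends of the precursor, was called lower in RNA (−0.33 ± 0.14 SE, log2 fold change; adjusted p = 0.0471). That call was lost without RNA control 1 (adjusted p = 0.169), RNA control 2 (0.105), RNA HF 1 (0.144) or RNA HF 2 (0.229). The remaining 5 (Nop16, Rrp1b, Rrs1, Ftsj3 and the helicase Ddx18) were called in neither assay. Ddx18 was the least counted member, with 4 to 41 counts per RNA library, and its RNA log2 fold change had an SE of 0.469.

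Footprint calls were set beside the RNA calls member by member. Of the 14 members higher in RNA, 8 were also higher in footprints (57.1%; 61.8% over all genes tested in both), Ncl was lower and 5 were not called. Of the 11 lower in RNA, 7 were lower in footprints (63.6%; 56.4% over all genes) and 4 were not called. Of the 20 not called in RNA, Nop10, Nolc1, Utp6 and Utp14a were higher in footprints, and Utp18 and Pes1 were lower. Across the 45 members, the log2 fold changes of RNA and footprints had Pearson's r = 0.711 and Spearman's rho = 0.667. Over all 7921 genes they were 0.713 and 0.656. The points are genes measured in the same 12 libraries and are no independent replicates. The coefficients of the members were close to those over all genes.

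**Figure D4:**
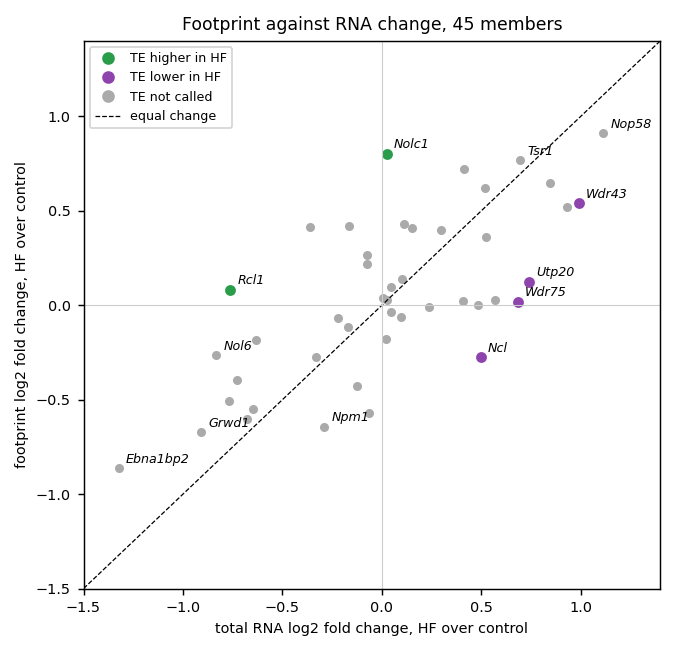
Footprint log2 fold change (vertical axis) against total RNA log2 fold change (horizontal axis), HF over control, for the 45 members, with the line of equal change dashed and members with a TE call coloured. Nolc1 and Rcl1 lie above the line, and Wdr43, Wdr75, Utp20 and Ncl below it.

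The 6 members with a TE call came from 3 role groups. Besides Ncl and Nolc1, TE was higher for Rcl1 (0.85 ± 0.277 SE, adjusted p = 0.0294) and lower for Wdr75 (−0.66 ± 0.224, adjusted p = 0.0394), Utp20 (−0.61 ± 0.184, adjusted p = 0.0191) and Wdr43 (−0.44 ± 0.157, adjusted p = 0.0486). For Rcl1, RNA was lower in HF cells and footprints were not called. For Wdr75 and Utp20, RNA was higher and footprints were not called, and for Wdr43 both were higher. The calls of Ncl and Nolc1 passed in every fit without 1 library. Those of the other 4 were lost in several. The adjusted p of Rcl1 was 0.137 without RNA control 1, 0.0544 without RNA HF 2, 0.12 without RNA HF 3, 0.10 without RPF control 3 and 0.0661 without RPF HF 3. For Utp20 it was 0.0912 without RNA control 1, 0.0671 without RNA control 2 and 0.0786 without RNA HF 2. For Wdr75 it was 0.198 without RNA control 1, 0.158 without RNA HF 2, 0.124 without RPF control 1, 0.0614 without RPF control 3 and 0.0808 without RPF HF 1. For Wdr43 the call held only without RNA HF 1 or RPF HF 2, and its adjusted p was 0.0503 to 0.135 without each of the other 10 libraries.

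The members together took 1.55% ± 0.0709 of footprint counts in HF libraries and 1.73% ± 0.0313 in control libraries (SD, n = 3 each). Ncl, Npm1 and Mybbp1a, 3 abundant members picked after their values were seen, took 0.522% ± 0.0275 in HF and 0.748% ± 0.0228 in control libraries. The other 42 took 1.03% ± 0.0439 in HF and 0.983% ± 0.00964 in control libraries. These 3 were the members with the most counts summed over the 12 libraries. All 3 were called lower in footprints, so this split is a description. In RNA the 45 members took 0.671% ± 0.0366 of counts in HF and 0.645% ± 0.00636 in control libraries. RNA shares were taken of totals in which Gm42418, a locus that overlaps ribosomal RNA, held 7.35% to 9.48% of counts in HF and 11.8% to 13.7% in control libraries, and its part in these shares was not tested.

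**Figure D5:**
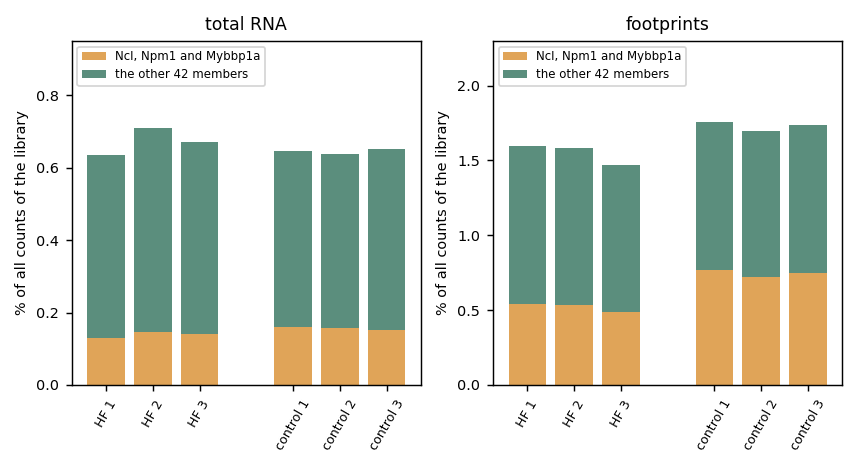
Bars give the members' share of all counts of each library, in percent, in total RNA (left) and footprints (right; the axes differ), HF libraries left of control libraries, with Ncl, Npm1 and Mybbp1a stacked under the other 42 members. In footprints the lower segment is 0.490% to 0.539% in HF and 0.725% to 0.770% in control libraries.

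Several members carry small nucleolar RNAs inside their gene bounds, and these were looked at after the host genes' values were known. Of 14 snoRNAs within member genes, 7 passed the filter in total RNA, and 3 were higher in HF cells. Among all 76 snoRNAs tested, 19 were higher and 7 lower. Snord92, inside Wdr43, had 24, 10 and 45 counts in HF libraries and 8, 4 and 10 in control libraries (log2 fold change 1.36 ± 0.523 SE, adjusted p = 0.0299). Snord11, inside Nop58, had 60, 41 and 83 counts in HF and 30, 21 and 22 in control libraries (0.90 ± 0.296, adjusted p = 0.0101). Snord91a, inside Tsr1, had 44, 33 and 75 counts in HF and 27, 10 and 29 in control libraries (0.78 ± 0.328, adjusted p = 0.0465). The hosts of all 3 were themselves higher in RNA. Snord11 kept its call without any 1 library. The adjusted p of Snord92 was 0.106 without RNA control 1, 0.0734 without RNA control 2, 0.0750 without RNA HF 1 and 0.226 without RNA HF 3. That of Snord91a was 0.116, 0.160, 0.0713 and 0.172 without the same 4 libraries. Snord82, inside Ncl, and Snord70, also inside Nop58, were not called (0.23 ± 0.248 and 0.30 ± 0.440 log2 fold change, SE). Counts are few, the strand of the snoRNAs is not given in the gene table used, and intronic reads of the host and reads of the snoRNA cannot be told apart.

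Genes around the members were called in both directions as well, as were genes at large. Among 118 other biogenesis genes tested in RNA (further subunit factors, snoRNP assembly, exosome and RNA polymerase I genes), 32 were higher and 24 lower. In footprints 35 of 120 were higher and 20 lower, and in TE 7 of 118 were higher and 4 lower. Shares over all genes tested were 22.2% higher and 21.4% lower in RNA. They were 22.4% and 20.9% in footprints, and 6.14% and 8.23% in TE. The highest RNA change was that of Taf1a, a subunit of the selectivity factor of RNA polymerase I, at 1.71 ± 0.348, and the lowest that of Rrp7a, an SSU processome factor, at −1.77 ± 0.373 (log2 fold change, SE). In footprints the highest was again Taf1a, at 2.19 ± 0.246, and the lowest Nop9, a pre-40S factor, at −1.56 ± 0.219. In TE they were Taf1d, of the same selectivity factor, at 2.53 ± 0.296 and Nop9 at −1.17 ± 0.280. Ubtf, which opens ribosomal RNA genes for RNA polymerase I, had RNA of 148, 117 and 148 CPM in HF cells and 252, 288 and 252 CPM in control cells. It was lower in RNA (−0.92 ± 0.134, adjusted p = 3.68e-08) and not called in footprints (−0.26 ± 0.188; log2 fold change, SE). Rrn3, the initiation factor that recruits the polymerase, was higher in RNA (0.32 ± 0.113, adjusted p = 0.0182) and in footprints (0.54 ± 0.118, adjusted p = 0.000432; log2 fold change, SE). The RNA call of Rrn3 was lost without RNA HF 3 (adjusted p = 0.0817) and with upper-quartile factors (0.0527). Among the 79 ribosomal protein genes tested in RNA, 53 were lower and 0 higher, and in TE 29 of 76 were higher and 3 lower. In footprints 15 of 77 were higher and 33 lower. Ribosomal protein genes also have processed pseudogenes of near-identical sequence, and the handling of reads with several matches is not given. Rpl13a, for example, had 50.0 CPM in control RNA and 1.9 CPM in control footprints, where it was not tested. The calls of these genes are thus uncertain. Members had calls in both directions in RNA, unlike ribosomal protein genes, while in footprints both sets did.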

How the data were processed

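Total RNA and ribosome footprints of HF-treated and control MEF were read in 12 libraries. The authors deposited whole-number read counts per gene, 1 table for each library, without normalization. Per the submitters' processing notes, the tools were HTSeq, HISAT2 and Bowtie, with no versions or order given, and the build was GRCm38. Per the labels' protocols, total RNA was fragmented by alkaline hydrolysis and footprints came from RNase I digestion and the monosome fraction of a sucrose gradient. Not given in the sources used here are the counted feature, the use of strand and the handling of reads with several matches. Reads of overlapping genes (Nop56 with Idh3b, Dkc1 with Mpp1, Nhp2 with Rmnd5b, Gnl3 with Glt8d1, Bop1 with Mroh1 and Scx, Ftsj3 with Ddx42, Tsr1 with Srr, Wdr12 with Carf) and of near-identical copies may be split. Low counts were mostly even: 65.4% to 81.9% of gene counts from 1 to 9, per library, for a reason that is not stated.

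Groups and replicate numbers came from the titles. Gene IDs were named with the ID table (55450 of 55536), and 21409 IDs were protein-coding in the RefSeq table of GRCm38.p6, whose coordinates, counted from 1, cover whole genes. Tests used edgeR 4.0.16 in R 4.3.3 (quasi-likelihood, TMM factors, filterByExpr with a minimum count of 10, Benjamini-Hochberg adjustment over all genes tested, threshold 0.05). The RNA test covered all genes and the footprint test protein-coding genes, with 6 libraries in each. TE was tested in a model of all 12 libraries as the interaction between treatment and assay, with factors computed within each assay. SE was the fold change divided by the root of its F statistic. CPM were scaled by TMM factors, and fold changes are those of the fit. With no spike-in described, a change is relative to that of most genes. The code was tested on simulated data. Promoter windows are from RefSeq (GRCm38.p6).

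The members and lists were chosen with earlier results of these data known. Values per library are printed for the 5 highest and 5 lowest members that passed in each comparison and for the member with the most RNA of each role group. Of the other biogenesis genes the rule took the 4 highest and 4 lowest in each comparison, of which the extreme on each side is printed, with Myc, Ubtf and Rrn3. Snu13, Utp4, Nol11, Bysl, Pno1, Riok1, Riok2 and Riok3 are also named, beside the members of their role. Role groups were joined by subunit for the counts. Alternatives were other scaling factors, DESeq2 1.42.0, limma-voom (limma 3.58.1), other filters (none, or a minimum count of 30), counts divided by 2, a replicate block, totals without Gm42418, other gene sets, 1 model over 12 libraries, and leaving out each library.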

Additional observations from a re-analysis of the deposited data

How the results depend on the processing

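Of the 25 members called in RNA, 17 kept their call in every fit without 1 library and 20 in every other alternative. In footprints 16 and 19 of 22 did, and in TE 2 and 5 of 6. The RNA calls lost in an alternative other than leaving out a library were those of Npm1, Utp3, Nob1, Wdr12 and Nol9. In footprints they were those of Nop10, Utp3 and Utp14a, and in TE that of Wdr43. No member called in any comparison changed direction under any alternative run. Members that were not called could change sign. Without 1 library, RNA calls ranged from 11 to 13 higher and 8 to 10 lower, and footprint calls from 8 to 12 higher and 9 to 10 lower. TE calls were 1 to 3 higher and 1 to 6 lower, where the full fit had 2 and 4, and the cause was not tested. DESeq2 called 12 members higher and 8 lower in RNA, 9 and 10 in footprints, and 2 and 4 in TE. The small-subunit members had 9 to 12 higher and 2 lower in RNA, and the large-subunit members 0 higher and 4 to 6 lower, over all the alternatives run. Upper-quartile factors moved the median log2 fold change of all genes in footprints to −0.10 and left 9 members higher and 10 lower there.

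With the replicate number as a block, 14 members were higher and 9 lower in RNA, 12 and 10 in footprints, and 2 and 3 in TE. Same-numbered libraries had no visible shared deviation: over 18 pairs, the correlation of their deviations from the group means was −0.03 to 0.02. Counting noise at this depth could hide a shared deviation, so this check cannot tell whether the numbers pair the samples.

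Footprint density per coding length and protein features of the members were planned and not run, because coding lengths and proteins were not used here. Depth limits the least counted members, such as Ddx18, Ddx10 and Fbl, whose RNA log2 fold changes had SE of 0.469, 0.370 and 0.296.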
